A study of Mus musculus with 24 samples.

Results

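The 4 libraries compared here are untreated cultures of 2 mouse cell lines, 2 libraries of RAW-Blue macrophages and 2 of K-Luc glioma cells, out of 24 libraries in the series. They were chosen by their labels alone: the cell line and the untreated control group. RAW-Blue is the RAW 264.7 macrophage line carrying a stably integrated secreted alkaline phosphatase reporter for NF-kB and AP-1. K-Luc is the KR158B glioma line, of C57BL/6 origin, expressing luciferase. Both lines were kept in the same serum-containing DMEM, plated for a migration assay with a culture insert, left to adhere, rinsed and given sterile water as the untreated control. The other groups received the oligonucleotide CpG-28, carbon nanotubes coated with a lipid-PEG (SWNT/LP), both together (CpG+SWNT/LP), or nanotubes dispersed in CpG-28 (SWNT/CpG).

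The lines differed in more than their origin. K-Luc cells stayed in the assay for 17 to 19 h and RAW-Blue cells for 47 to 50 h, and K-Luc cells were also plated outside the insert while RAW-Blue cells were plated only inside it. Line, culture time and plating cannot be told apart in these libraries. K-Luc replicate 1 is labelled run 1, and K-Luc replicate 2 and both RAW-Blue libraries run 2. Nothing in the labels tells if the replicates were grown separately, and the p-values may therefore reflect technical spread alone. Each line is 1 established line, and no primary macrophage, microglial cell or astrocyte is among the samples.

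As background, macrophages belong to the myeloid branch of blood cell development. The ETS factor PU.1, encoded by Spi1, drives that branch, and signals from the CSF1 receptor keep its cells alive. Macrophages engulf and digest particles in lysosomes and sense microbes through Toll-like receptors. RAW 264.7 came from a tumour induced by Abelson murine leukaemia virus in a male BALB/c mouse. The KR158 glioma lines came from mice with mutations in Nf1 and Trp53, whose astrocytomas are models of malignant glioma. Macrophages and microglia are abundant in gliomas and exchange growth factors and chemokines with the tumour cells.

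Total counts were 17.2 and 18.7 M in the RAW-Blue libraries and 13.3 and 22.5 M in the K-Luc libraries. Levels are given as deposited RPKM (reads per kilobase of gene, scaled to library size), rounded by the authors to 1 decimal, always with replicate 1 before replicate 2. Differences are log2 fold changes, RAW-Blue minus K-Luc, with 2 libraries per line. The value after ± is a standard error worked back from the F statistic of edgeR's quasi-likelihood test. It is the absolute difference divided by the square root of F, and can be too small where a line is near 0. A gene is called when its adjusted p was under 0.05 in edgeR's test of whether the difference exceeds 2-fold. A gene detected in 1 line alone has at most 3 counts in both libraries of one line and at least 1 CPM (counts scaled to library size) in both of the other, and its fold is given as a lower bound against 3 counts per library. Replicates correlated at r = 0.9924 in RAW-Blue and 0.9944 in K-Luc (log2 CPM across genes, which are not independent). Over 2-fold differences between replicates were seen in 102 of 8654 genes in RAW-Blue and 6 of 9104 in K-Luc.

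RAW-Blue replicate 1 stood apart from the other RAW-Blue libraries of the series by gene length. Of 7518 genes in 5 equal classes of length, its shortest class (median 1.84 kb) lay 0.19 log2 units above the mean of the line and its longest (median 11.15 kb) at -0.11, while RAW-Blue replicate 2 had -0.07 and 0.04. The median line difference therefore ran from 0.27 in the shortest to -0.14 in the longest class with replicate 1, and from 0.03 to 0.06 with replicate 2. The part of gene length in the results was not tested. Counts given below that moved by more than 1.5 times without 1 library are followed by their value without it.

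The 2 lines differed in most genes. Of 13350 genes tested, 4945 (37.0%) were higher in RAW-Blue and 5457 (40.9%) higher in K-Luc by the quasi-likelihood test of any difference. By the test against 2-fold, 2112 (15.8%) were higher in RAW-Blue and 2803 (21.0%) higher in K-Luc. The first of these counts was 1358 without K-Luc replicate 2. That fit leaves the untreated K-Luc group to the run 1 library, and with the run term dropped as well the count was 1904. In the same fit 39 of 285 named genes lost their call of any difference (adjusted p = 1 for Mycn, Spi1, Tyrobp, Itgam, Adgre1, Vav1, Dock2, Rac2, Ncf4, Tlr9, Tnf, Ccl4, Cx3cr1, C3ar1, C5ar1, Lpl, Irg1, Cd5 and the Y-linked genes below), although these had at most 4 counts in each K-Luc library, and 3 lost it with the run term also dropped. Among genes called against 2-fold, 939 higher in RAW-Blue and 1692 higher in K-Luc had a fitted difference over 16-fold. That size was not itself tested, and a fitted fold against a line near 0 is uncertain. Of the genes detected in 1 line alone, 515 were in RAW-Blue and 1074 in K-Luc. The median difference over all tested genes was -0.05. The shares of 15.8% and 21.0% are the background for the counts per list below. A count near them says little about its list. Of the tested genes, 2309 had at most 3 counts in both untreated libraries of 1 line only. Such a gene could not pass the filter on low counts through those libraries. The direction of its call was thus largely set by the filter.

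**Figure D1:**
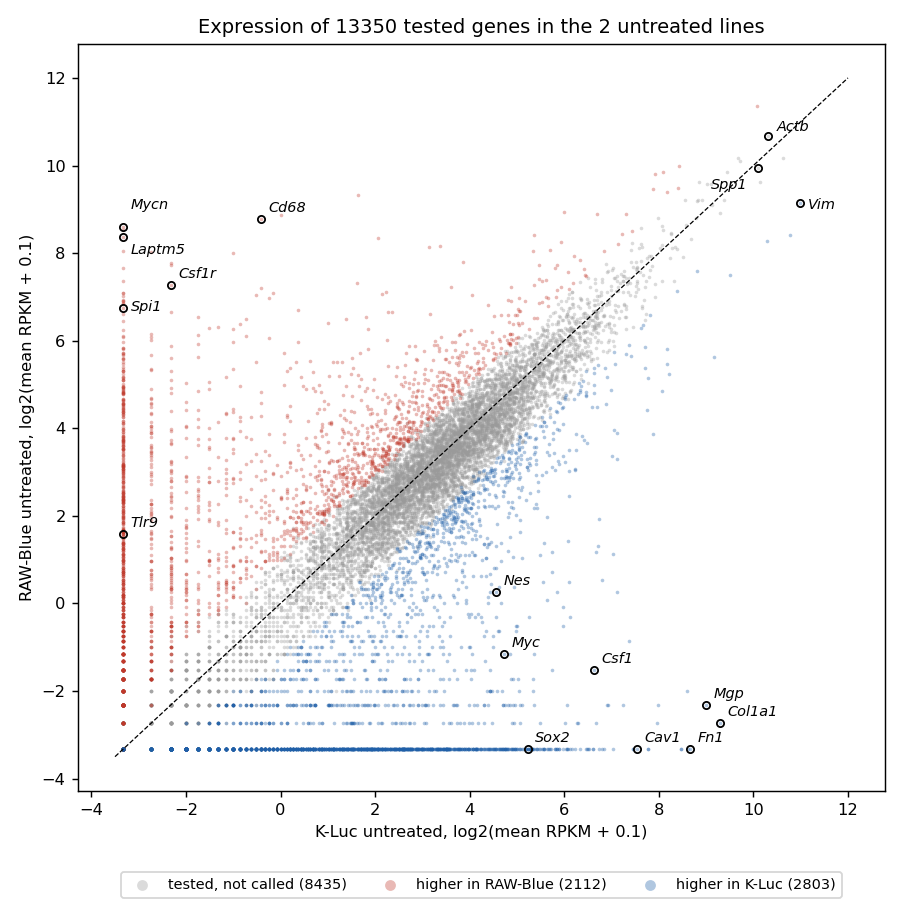
Mean RPKM of each tested gene in the untreated RAW-Blue libraries (vertical axis) and the untreated K-Luc libraries (horizontal axis), both as log2(RPKM + 0.1). Red points are the 2112 genes called higher in RAW-Blue, blue points the 2803 called higher in K-Luc and grey points the other tested genes. The dashed line marks equal levels, and labelled genes such as Mycn and Col1a1 lie along the edges where the other line is at or near 0.

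The RAW-Blue libraries carried the macrophage genes. All 28 tested macrophage markers of 30 listed were called higher in RAW-Blue, and 20 of them were detected in RAW-Blue alone. This count was 13 without K-Luc replicate 2, and 27 with the run term also dropped. The median difference of the 28 was 9.14 with members detected in 1 line set at their lower bounds. Both untreated libraries of 1 line had at most 3 counts for 21 of the 28. Their direction was largely set by the filter, and the list was chosen with earlier results of these data known. Mrc1, the mannose receptor, and Ms4a7 had at most 1 count in any of the 4 libraries and were not tested. The summed level of the list was 3526.9 and 3109 RPKM in RAW-Blue against 6 and 7.2 in K-Luc.

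Among these markers, Tyrobp, the adaptor DAP12 of many myeloid receptors, had 412 and 323.2 RPKM in RAW-Blue and 0 and 0 in K-Luc, at least 1514-fold higher. Laptm5, a lysosomal membrane protein of blood cells, had 360.7 and 295.3 RPKM against 0 and 0. Lyz2, the macrophage lysozyme, had 505 and 425.9 RPKM against 1 and 0.8, a difference of 9.21 ± 0.15 (adjusted p = 1.4e-23). Reads of Lyz2 may be shared with its close copy Lyz1. Cd68, a glycoprotein of phagocyte lysosomes, had 495.9 and 376.7 RPKM against 0.4 and 0.9. The pan-leukocyte phosphatase Ptprc had 22 and 39.5 RPKM in RAW-Blue, Adgre1, an adhesion receptor, 11.8 and 12.1, and Itgam, an integrin chain, 44.2 and 51.3. All of them were at 0 in both K-Luc libraries, so the 2 lines did not overlap in any of these genes. The 2 lines did not overlap in 11026 of the 13350 tested genes.

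Among the most abundant genes of RAW-Blue alone, some are not macrophage markers. Mycn, a MYC family transcription factor, had the highest level of all genes detected in RAW-Blue alone, with 426.5 and 348.9 RPKM against 0 and 0, at least 7752-fold higher. Its relative Myc ran the other way, with 0.3 and 0.4 RPKM in RAW-Blue and 26.3 and 26.7 in K-Luc (-6.09 ± 0.36, adjusted p = 3.2e-10). Each line thus held 1 of these 2 MYC genes at a high level. Car2, a carbonic anhydrase known from osteoclasts, had 258.3 and 261.8 RPKM in RAW-Blue and 0.1 and 0 in K-Luc.

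The largest differences among genes with counts in every library included Csf1r, described with the receptors below, and intracellular signalling genes. Kbtbd11 had 50.1 and 51.2 RPKM in RAW-Blue and 0.1 and 0 in K-Luc (10.70 ± 0.26), and Wdfy4, known from antigen cross-presentation, 31.9 and 27.3 against 0.1 and 0 (10.16 ± 0.24). Pik3cg, a phosphoinositide 3-kinase of leukocytes, had 16 and 16.3 RPKM against 0 and 0 (9.62 ± 0.26), and Prkch, a protein kinase C, 32.2 and 28.2 against 0.1 and 0.1 (9.18 ± 0.24). Mpeg1, the pore-forming perforin-2 of macrophages, had 161.4 and 165.2 RPKM in RAW-Blue alone, at least 5196-fold higher.

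Myeloid transcription factors differed gene by gene. Of 24 tested, 14 were called higher in RAW-Blue (9 without K-Luc replicate 2) and 3 higher in K-Luc, with a median of 2.01. Spi1 had 120.9 and 94.2 RPKM in RAW-Blue and 0 and 0 in K-Luc, at least 1049-fold higher. Lyl1, a basic helix-loop-helix factor of blood cells, had 68.2 and 61.8 RPKM against 0 and 0.1, and Irf5, an interferon regulatory factor downstream of Toll-like receptors, 48.4 and 42.3 against 0.5 and 0.7. The members called higher in K-Luc were Klf4 (0.5 and 0.6 RPKM against 24.9 and 23.4), Maf and Tcf7l2. Runx1, a core factor of blood formation, was not called: 7.2 and 8.2 RPKM in RAW-Blue and 9.1 and 7.9 in K-Luc, values that overlap.

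Promoter sequences were searched for the letters GAGGAAGT, a form of the ETS site that PU.1 binds, on both strands of the 250 bases before each start site. The letters stood in 6.85% of 482 promoters of genes detected in RAW-Blue alone (378 genes with an entry), in 2.05% of 1025 promoters of genes detected in K-Luc alone (764 genes), in 2.42% of 12967 promoters of tested genes and in 2.44% of all 32851 promoters. The other letters searched the same way were CCGGAAG of many ETS factors (whose core GGAAG is also part of the letters above), TGANTCA of AP-1, ACATTCCA of TEAD factors, ACAANGG of SOX factors, the E-box CAGCTG, the TATA box TATAAAA and the NRF1 site. Each stood in a smaller share of the promoters of genes of RAW-Blue alone than of all promoters, but against the promoters of tested genes the share was smaller for 4 of these 7 and larger for AP-1, SOX and the E-box. CCGGAAG stood in 4.56% of the RAW-Blue promoters, 12.7% of those of tested genes and 6.91% of all, the AP-1 site in 6.02%, 4.67% and 6.75%, and the TATA box in 1.66%, 2.25% and 4.98%. The SOX letters stood in 10.4%, 9.38% and 11.6%, and the E-box in 12.7%, 12.1% and 13%. A match describes the letters of the reference and is no measured site. The 4 promoters below were chosen with the promoters of a single chromosome left out. Among the others that hold GAGGAAGT, they belong to the genes of RAW-Blue alone with the highest RPKM, and show where it lies relative to the start. They are RefSeq sequences of GRCm38.p6, written 5′ to 3′ on the strand of the gene with the start after the last base and the match in capitals (as ACTTCCTC where it is on the opposite strand).
Cd72: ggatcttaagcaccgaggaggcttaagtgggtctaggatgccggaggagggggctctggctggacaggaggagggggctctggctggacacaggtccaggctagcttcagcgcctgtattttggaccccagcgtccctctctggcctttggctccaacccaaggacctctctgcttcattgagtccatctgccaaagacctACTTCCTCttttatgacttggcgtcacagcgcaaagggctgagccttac
Inpp5d: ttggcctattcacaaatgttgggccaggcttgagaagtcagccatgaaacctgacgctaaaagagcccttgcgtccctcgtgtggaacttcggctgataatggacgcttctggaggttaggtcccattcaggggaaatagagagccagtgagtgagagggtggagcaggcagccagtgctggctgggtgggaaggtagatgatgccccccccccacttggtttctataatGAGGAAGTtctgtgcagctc
Vav1: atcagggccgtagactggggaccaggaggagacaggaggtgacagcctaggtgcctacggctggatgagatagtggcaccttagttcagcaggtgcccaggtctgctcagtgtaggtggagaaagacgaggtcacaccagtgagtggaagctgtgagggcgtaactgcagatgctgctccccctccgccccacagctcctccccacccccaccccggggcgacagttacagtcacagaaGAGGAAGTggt
Cd37: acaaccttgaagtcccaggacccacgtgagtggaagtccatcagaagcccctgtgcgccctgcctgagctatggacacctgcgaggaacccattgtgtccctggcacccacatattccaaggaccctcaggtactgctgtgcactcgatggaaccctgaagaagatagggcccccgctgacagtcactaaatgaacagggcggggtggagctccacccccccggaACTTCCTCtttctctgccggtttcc

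These windows lie at chr4:43454627-43454876 on the minus strand (Cd72, a co-receptor of B cells and macrophages), chr1:87620062-87620311 on the plus strand (Inpp5d, the inositol phosphatase SHIP), chr17:57278850-57279099 on the plus strand (Vav1, a guanine nucleotide exchange factor) and chr7:45238840-45239089 on the minus strand (Cd37, a tetraspanin of leukocytes). The match ends 41, 12, 3 and 17 bases before the start in the order Cd72, Inpp5d, Vav1 and Cd37. Inpp5d had 43.3 and 38.6 RPKM and Vav1 36.6 and 31.8 in RAW-Blue, and both were at 0 in K-Luc.

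Signalling genes of blood cells were higher in RAW-Blue almost throughout. Of 30 tested, 29 were called higher in RAW-Blue, 15 of them detected in RAW-Blue alone, with a median of 7.65 at the lower bounds. The exception was Evl, an actin regulator of the Ena/VASP family, with 0.1 and 0.1 RPKM in RAW-Blue and 13.8 and 12.4 in K-Luc. Lcp1, the actin-bundling L-plastin, had 276.5 and 251.8 RPKM in RAW-Blue and 0 and 0 in K-Luc, at least 8652-fold higher. Coro1a, a coronin, had 235.9 and 185.1 RPKM against 0.1 and 0.1. Arhgdib, a regulator of small GTPases, was the least restricted of those named, with 321.2 and 254.2 RPKM in RAW-Blue and 11.8 and 8.8 in K-Luc.

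Many of these genes have a relative that other cells use, and 27 such pairs were compared. The pairs were chosen with earlier results of these data known. The gene known from blood cells was called higher in RAW-Blue in 23 pairs (over all tested genes, 15.8%). Its relative was called higher in K-Luc in 13 (over all tested genes, 21.0%). Both held in 9 pairs, whose members differed in opposite directions, among them Lcp1 with Pls3, Nckap1l with Nckap1, Was with Wasl, Plcg2 with Plcg1, Hcls1 with Cttn, Itgb2 with Itgb5, Fli1 with Ets1, and Fermt3 with Fermt2. The relative was not always absent from RAW-Blue: Pls3, the plastin of many tissues, had 29.7 and 35.7 RPKM there and 77.7 and 80.8 in K-Luc, and Itgb5 16.5 and 13 against 156.8 and 121.8. In the cortactin relatives, which bind actin, Hcls1 had 151.5 and 119.9 RPKM in RAW-Blue and 0 and 0 in K-Luc, and Cttn 0 and 0.1 in RAW-Blue and 66.7 and 62 in K-Luc. The kindlins were similar, with Fermt3 at 113.6 and 89 RPKM against 0.1 and 0.1, and Fermt2 at 0 and 0 against 31.6 and 30.5. Nckap1, a WAVE complex subunit, had 0.6 and 0.8 RPKM in RAW-Blue and 69 and 69.3 in K-Luc, while its relative Nckap1l had 48 and 44 against 1.9 and 1.

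In other pairs the relative was shared by both lines. Rac2, a small GTPase, had 125.9 and 106.2 RPKM in RAW-Blue alone, and Dock2, an exchange factor for it, 36.2 and 35.3. Dock1, the relative of Dock2, had 7.3 and 7.2 RPKM in RAW-Blue and 11.9 and 10.9 in K-Luc and was not called (-0.46 ± 0.08). In 4 pairs the gene known from blood cells was not called higher in RAW-Blue. Prkcb, a protein kinase C, had 0 and 0 RPKM in RAW-Blue and 2.3 and 1.9 in K-Luc, and Cnn2, a calponin, 1.2 and 1.5 against 112.5 and 110.9. Tagln2 (122.3 and 92.8 against 193.8 and 206.5) and Runx1 were not called.

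**Figure D2:**
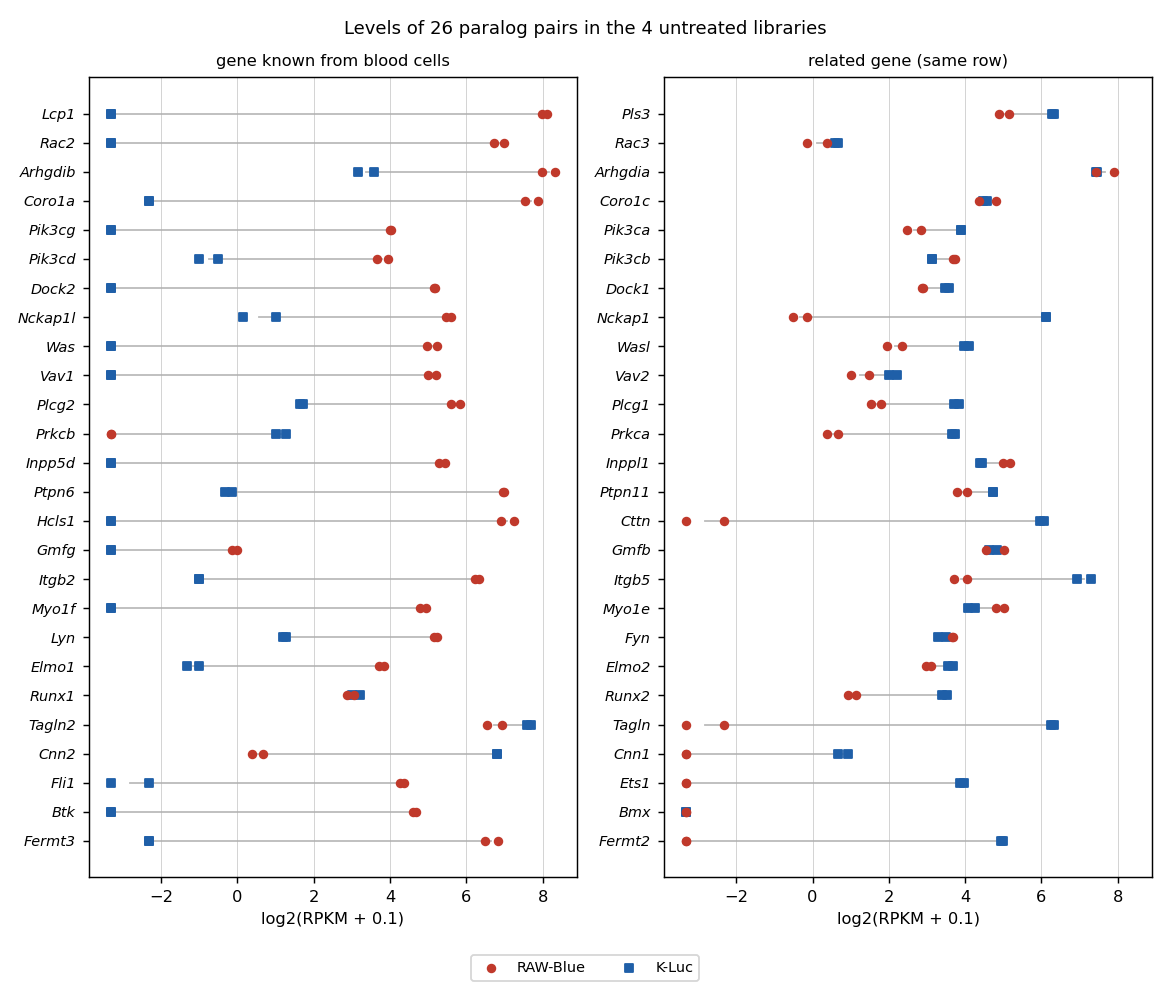
Levels of 26 genes known from blood cells (left) and of a relative of each (right, same row) as log2(RPKM + 0.1) in the 4 untreated libraries. Red circles are the RAW-Blue libraries, blue squares the K-Luc libraries, and grey lines join the means of the lines. In 22 rows the left gene is called higher in RAW-Blue, and in 8 of them the right gene is called higher in K-Luc.

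Genes of phagocytosis were called in both directions. Of 29 tested phagocytic, scavenger and Fc receptors, 16 were called higher in RAW-Blue (8 without K-Luc replicate 2) and 8 higher in K-Luc. Trem2, a lipid-binding receptor that signals through DAP12, had 132 and 108.8 RPKM in RAW-Blue and 0 and 0 in K-Luc. Fcer1g, the common Fc receptor gamma chain, had 271.7 and 236.9 RPKM against 0.5 and 0.3, and Sirpa, the receptor for the CD47 signal on target cells, 109.7 and 93 against 4.7 and 4.8. On the K-Luc side, Axl, a receptor for dying cells, had 2.8 and 2 RPKM in RAW-Blue and 106.7 and 102.4 in K-Luc, and the collagen receptor Mrc2 0 and 0 against 60.7 and 57. Mertk, a relative of Axl known from tissue macrophages, had 0 counts in RAW-Blue and 3.8 and 3.4 RPKM in K-Luc.

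Of 9 tested genes of the phagocyte NADPH oxidase, which makes superoxide, 6 were called higher in RAW-Blue, all 6 detected there alone, among them Cybb (59 and 78.7 RPKM), Cyba, Ncf1 (117.7 and 112.2), Ncf4 (82.8 and 68.5) and Rac2. Nox4, another catalytic subunit, was detected in K-Luc alone, with 3 and 2.6 RPKM. Rac1 and Nox1 were not called.

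Toll-like receptors and their partners were higher in RAW-Blue in 18 of 35 tested genes and higher in K-Luc in 3, with a median of 1.26. Tlr9, the receptor for unmethylated CpG DNA and so for the oligonucleotide of this series, had 3 and 2.8 RPKM in RAW-Blue, at least 73.5-fold above K-Luc, where it was at 0 and 0. Unc93b1, which carries nucleic acid sensing receptors to endosomes, had 64.4 and 60.1 RPKM against 1.2 and 1.2 (5.87 ± 0.09). Cd14, a co-receptor for lipopolysaccharide, had 372.9 and 279.6 RPKM against 3.5 and 4.7. Myd88, the shared adaptor, was present in both lines, with 37.9 and 27.1 RPKM against 8.4 and 7.9 (2.20 ± 0.13, adjusted p = 7.6e-10). Tlr3 (0.5 and 0.6 RPKM against 2.4 and 2.3), Tlr5 and Zbp1 were called higher in K-Luc. Tlr4, the lipopolysaccharide receptor, was not called, with 11.9 and 19.1 RPKM in RAW-Blue and 11.6 and 10.9 in K-Luc.

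Inflammasome sensors were higher in RAW-Blue in 8 of 14 tested genes (4 without K-Luc replicate 2), and none was called higher in K-Luc. Nlrp3 had 19.6 and 18.6 RPKM in RAW-Blue and 0 and 0 in K-Luc, and Aim2, a DNA sensor, 16.5 and 20.6 against 0.2 and 0.2. Pycard, the adaptor ASC through which these sensors engage caspase-1, had 0 counts in both RAW-Blue libraries and at most 1 in K-Luc, and was not tested. Its absence from RAW 264.7 cells is known. Il1b, the cytokine that the inflammasome matures, had 1 count in each RAW-Blue library and 0 in K-Luc.

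About as many lysosomal genes were called higher in RAW-Blue as were not called. Of 40 tested, 21 were called higher in RAW-Blue, 3 of them detected there alone (Ctss, Acp5 and Atp6v0d2), and 1, Cd63, higher in K-Luc (2 without RAW-Blue replicate 1), with a median of 1.21. Ctss, cathepsin S, had 130.6 and 128.8 RPKM in RAW-Blue and 0 and 0 in K-Luc. Other cathepsins were abundant in both lines, with Ctsb at 567.8 and 412.3 RPKM against 63.9 and 62.6 (3.12 ± 0.12, adjusted p = 1.4e-14) and Ctsd at 841.6 and 577.2 against 250.9 and 219.2. Lgmn, the protease legumain, had 286.2 and 239.8 RPKM against 42.2 and 38.5. Cd63, a tetraspanin of late endosomes, had 52.4 and 35.8 against 137.8 and 131.9. Genes of lipid efflux and storage had 11 of 21 tested members called higher in RAW-Blue (7 without K-Luc replicate 2) and 2 higher in K-Luc. Lpl, lipoprotein lipase, had 104.4 and 139 RPKM in RAW-Blue and 0 and 0 in K-Luc, and Abca1, the cholesterol exporter, 0.5 and 0.7 against 5.4 and 3.5 (-2.43 ± 0.31). By the test of any difference, 9 of 23 tested cholesterol synthesis genes were higher in RAW-Blue and 6 higher in K-Luc. By the test against 2-fold, 22 were not called and Mvd was higher in RAW-Blue (1.47 ± 0.15). The number higher in RAW-Blue was 0 without RAW-Blue replicate 1 or K-Luc replicate 2, and 2 without RAW-Blue replicate 2.

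Antigen presentation genes gave 12 of 22 tested members higher in RAW-Blue and 1, H2-DMb1, higher in K-Luc (2 without RAW-Blue replicate 1). Cd74, the invariant chain of class II, had 217.2 and 222.4 RPKM in RAW-Blue and 0.1 and 0.1 in K-Luc. The class II chains H2-Aa and H2-Ab1 and their activator Ciita had at most 4 counts in any of the 4 libraries and were not tested. The class I genes H2-K1 (41 and 36.2 RPKM against 45.1 and 42.7) and H2-D1 were not called. RAW 264.7 carries BALB/c alleles, the reads were aligned to the C57BL/6 genome mm9, and H2 genes are near-identical copies of each other, so levels of H2 genes are uncertain.

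Of 17 tested osteoclast programme genes, 10 were called higher in RAW-Blue and 2 higher in K-Luc. Tnfrsf11a, the receptor RANK that starts the programme, had 9.2 and 9.8 RPKM in RAW-Blue and 0.1 and 0.1 in K-Luc. Dcstamp, needed for cell fusion, had 42.8 and 37.7 RPKM against 0.1 and 0. Acp5 and Ctsk, enzymes of the mature osteoclast, were low, at a mean of 5.05 and 1.85 RPKM in RAW-Blue. Itgb3 and Src, both needed for bone resorption, were the members higher in K-Luc (0 and 0 against 6.9 and 4.8 RPKM, and 0.5 and 0.5 against 22.2 and 22.9). Tnfsf11, the ligand RANKL, had 0 counts in all 4 libraries.

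Glycolytic genes were higher in RAW-Blue. Of 30 tested glycolysis and hypoxia genes, 22 were called higher in RAW-Blue and 3 higher in K-Luc, with a median of 1.83. The enzymes Aldoa (987.3 and 802.4 RPKM against 240 and 246.7), Ldha (1038.6 and 798.8 against 255.1 and 287.7) and Pkm (1116.4 and 902.8 against 325.2 and 358.1) were 1.64 to 2.03 log2 units higher. Slc2a1, the glucose transporter GLUT1, had 159.7 and 137.1 RPKM against 28.4 and 29.9. Hif1a, the transcription factor of the hypoxia response, was not called (-0.03 ± 0.11), and Epas1, its relative, was detected in K-Luc alone at 2.9 and 1.9 RPKM. Ldhb, the other lactate dehydrogenase, had 0 and 0 RPKM in RAW-Blue and 9.8 and 10.2 in K-Luc. Slc16a3, the lactate exporter MCT4, had 167.7 and 125.1 against 0.8 and 0.5. Slc2a1 and Slc16a3 were picked here after their values were seen.

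**Figure D3:**
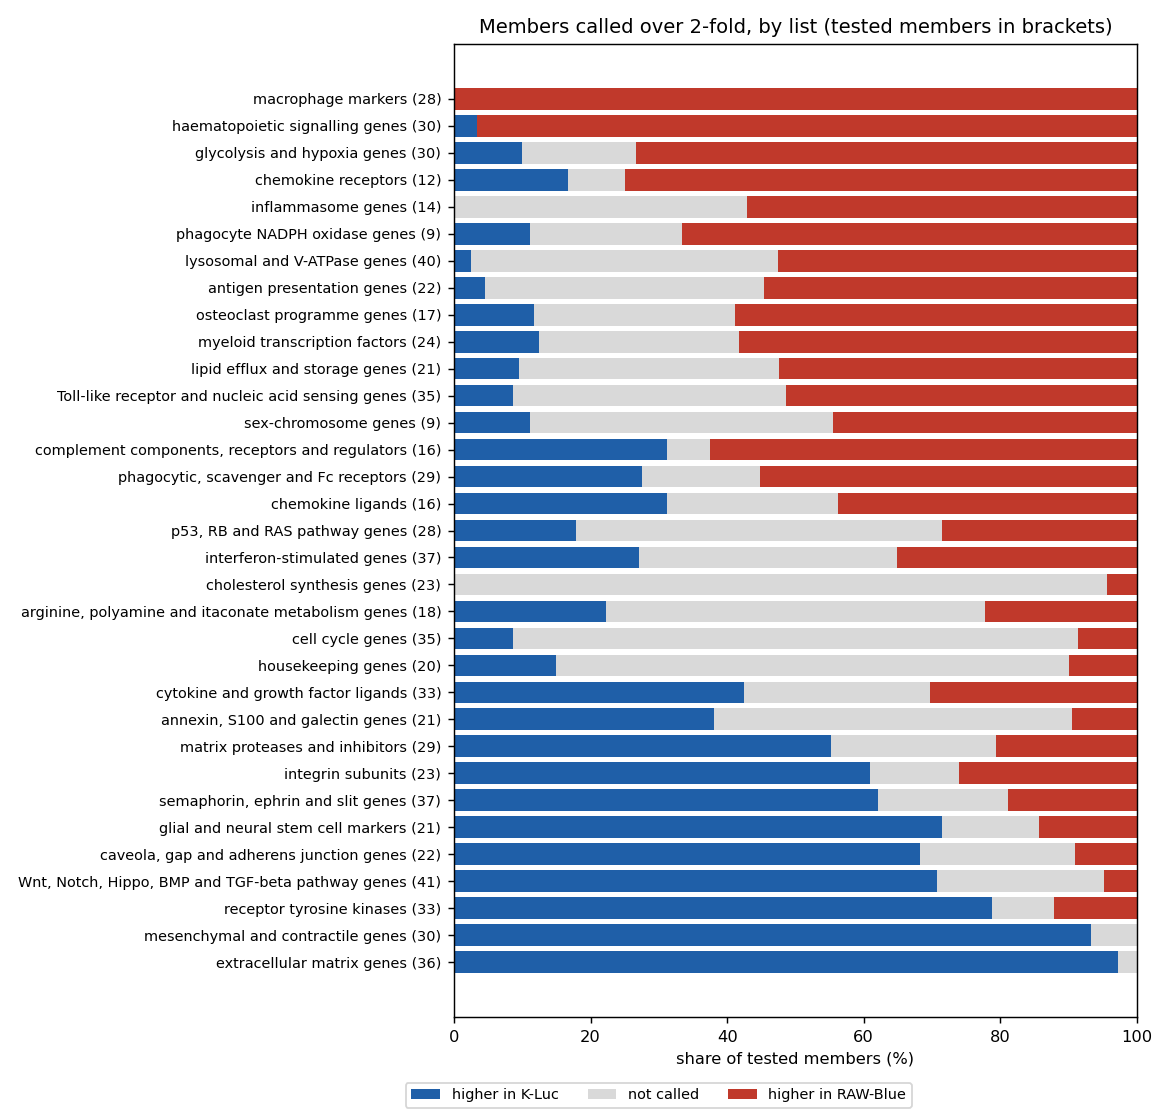
Share of the tested members of each gene list called higher in K-Luc (blue), not called (grey) and called higher in RAW-Blue (red) by the test against 2-fold, with the number of tested members in brackets and lists of under 9 tested members left out. Over all tested genes these shares were 21.0% higher in K-Luc and 15.8% higher in RAW-Blue. Macrophage markers (28 of 28 red) and extracellular matrix genes (35 of 36 blue) are the ends of the order.

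Some glial markers were higher in K-Luc and others in RAW-Blue. Of 21 tested glial and neural stem cell markers of 31 listed, 15 were called higher in K-Luc, 8 of them detected there alone, and 3 higher in RAW-Blue, with a median of -5.11 at the lower bounds. Sox2, a neural stem cell factor, had 0 and 0 RPKM in RAW-Blue and 38.6 and 36.6 in K-Luc, at least 778-fold higher in K-Luc. Sox9 had 0 counts in RAW-Blue and 13.8 and 13.5 RPKM in K-Luc, and Nes, the progenitor filament nestin, 1.2 and 1 against 25.1 and 21.9 (-4.34 ± 0.13). The members called higher in RAW-Blue were Aldh1l1, a folate enzyme known from astrocytes (1.2 and 1 RPKM in RAW-Blue against 0.1 and 0.1), Msi1, an RNA-binding protein of neural progenitors (1 and 0.9 against 0.1 and 0.2), and the transcription factor Nfia (1 and 0.9 against 0 and 0). Gja1, a connexin known from astrocytes, and Nfib, a relative of Nfia, were higher in K-Luc (-5.11 and -12.49). Several other listed markers of glial lineages were at or near 0 in K-Luc. Gfap, the astrocyte filament, had 2 and 3 counts in K-Luc and 8 and 5 in RAW-Blue and was not called, Olig1, Olig2 and Aqp4 had 0 counts in all 4 libraries, and Sox10 had 0 in K-Luc.

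Of the genes of K-Luc alone, Mgp, matrix Gla protein, was the most abundant. It had 549.1 and 478.2 RPKM in K-Luc against 0.1 and 0.1 in RAW-Blue, followed by Crabp1, a retinoic acid binding protein (355.3 and 426.2), and Sparc, a matrix glycoprotein (385.5 and 324.1), both at 0 in RAW-Blue. Of 36 tested extracellular matrix genes, 35 were called higher in K-Luc and none higher in RAW-Blue, with a median of -10.33 at the lower bounds. Fn1, fibronectin, had 444.1 and 364.4 RPKM in K-Luc and 0 and 0 in RAW-Blue (-13.23 ± 0.21). Col1a1, a chain of type I collagen, had 711 and 551.5 against 0.1 and 0. The exception was Col4a5, a basement membrane collagen, with 11.4 and 14.1 RPKM in RAW-Blue and 16.4 and 15.7 in K-Luc.

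The 10 most abundant genes of K-Luc alone also held Cav1, described below, and 6 others. Pcolce, an enhancer of procollagen processing, had 221.3 and 212.5 RPKM in K-Luc and 0 and 0 in RAW-Blue, Timp3, an inhibitor of matrix proteases, 139.8 and 122.2 (at least 8415-fold higher), and Cnn3, a calponin, 115.1 and 112.7. Aebp1, a secreted collagen-binding protein, had 192.9 and 159 RPKM in K-Luc and Maged1, a member of the MAGE family, 109.4 and 114.5, both at 0 in RAW-Blue. Cd34, a surface sialomucin known from blood progenitors, vessels and fibroblasts, had 96.7 and 114.6 RPKM in K-Luc and 0 and 0 in RAW-Blue. Among genes with counts in every library, Col12a1, a collagen, had 79.6 and 59.2 RPKM in K-Luc (-12.11 ± 0.26), Hspg2, the proteoglycan perlecan, 61.4 and 57.1 (-11.31 ± 0.17), and Myh10, a non-muscle myosin, 31.4 and 28.6 (-10.44 ± 0.15), all with 0 and 0 in RAW-Blue.

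Contractile and mesenchymal genes gave 28 of 30 tested members higher in K-Luc and 0 higher in RAW-Blue (1 without RAW-Blue replicate 1). Both untreated libraries of 1 line had at most 3 counts for 17 of the 30, so their direction was largely set by the filter. Acta2, smooth muscle actin, had 382.2 and 395.4 RPKM in K-Luc and 0.2 and 0.1 in RAW-Blue (-11.74 ± 0.19, adjusted p = 8.9e-24). Vim, vimentin, was high in both lines, at 606.6 and 516.1 RPKM in RAW-Blue and 2022.3 and 2049.7 in K-Luc (-1.73 ± 0.08). Cav1, the caveola protein, had 183.7 and 187.7 RPKM in K-Luc alone. Its partner Ptrf, cavin-1, had 120.3 and 117.8 RPKM in K-Luc against 0.1 and 0.1. Of 22 tested caveola and junction genes, 15 were called higher in K-Luc and 2 higher in RAW-Blue (1 without RAW-Blue replicate 1 and 0 without K-Luc replicate 2), and both of the latter were at or under 0.1 RPKM in every library.

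Integrin subunits were called in both directions. Of 23 tested subunits, 14 were called higher in K-Luc and 6 higher in RAW-Blue (3 without K-Luc replicate 2). Itgb1, the shared beta chain of matrix receptors, had 40.4 and 47.2 RPKM in RAW-Blue and 281.2 and 293.3 in K-Luc (-2.61 ± 0.08), and Itga3, a laminin receptor chain, 0 and 0 against 45.6 and 48.6. The leukocyte chain Itgb2 had 80.2 and 74.2 RPKM in RAW-Blue and 0.4 and 0.4 in K-Luc, and Itga4 48.7 and 88.9 against 0.6 and 0.4. Of 29 tested matrix proteases and inhibitors, 16 were called higher in K-Luc and 6 higher in RAW-Blue (3 without K-Luc replicate 2). Mmp14, the membrane collagenase, had 98.7 and 79.7 RPKM in K-Luc alone, while Plau, the urokinase activator of plasminogen, had 313.9 and 247.1 RPKM in RAW-Blue against 8.8 and 8.7. Timp2, an inhibitor of these enzymes, had 0.1 and 0.1 RPKM in RAW-Blue and 268.5 and 235 in K-Luc.

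Receptor tyrosine kinases were mostly K-Luc genes: 26 of 33 tested were called higher in K-Luc, 16 of them detected there alone, and 4 higher in RAW-Blue (2 without K-Luc replicate 2). Fgfr1 had 0 and 0 RPKM in RAW-Blue and 76.3 and 66.5 in K-Luc, Ddr2, a collagen receptor, 0 and 0 against 45.3 and 40.7, and Pdgfrb 0.1 and 0.1 against 45.7 and 36.2. Csf1r was the abundant exception, with 162.7 and 144.4 RPKM in RAW-Blue and 0.1 and 0.1 in K-Luc (10.77 ± 0.22, adjusted p = 3.8e-22). Erbb3 was detected in RAW-Blue alone at 2.3 and 2.2 RPKM. Of 47 listed kinases, 14 were not tested. Among the 33 tested, 22 had at most 3 counts in both untreated libraries of 1 line, so their direction was largely set by the filter.

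Developmental pathways were tilted the same way. Of 41 tested Wnt, Notch, Hippo, BMP and TGF-beta genes, 29 were called higher in K-Luc and 2 higher in RAW-Blue, with a median of -3.51 at the lower bounds. Id1 and Id3, targets of BMP signals, had 2.9 and 2.1 RPKM and 11 and 8.6 RPKM in RAW-Blue, against 38.9 and 55.6 and 127.8 and 150.9 in K-Luc. The Hippo effectors, picked after their values were seen, were all called higher in K-Luc: Yap1, Wwtr1 (TAZ), Tead1, Tead2, Tead3 and Tead4. Their means rounded to 0 RPKM in RAW-Blue, and in K-Luc Wwtr1 had 36.1, Tead1 32.65 and Yap1 13.55 RPKM. Tgfbr2, a TGF-beta receptor, was higher in RAW-Blue (40.4 and 37 RPKM against 13.9 and 13.2). Of 37 tested semaphorin, ephrin and slit genes, 23 were called higher in K-Luc and 7 higher in RAW-Blue. Slit2, a repellent cue, had 21 and 21 RPKM in K-Luc alone, and Sema4d, an immune semaphorin, 67 and 57.3 in RAW-Blue alone.

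Transcripts of secreted signals were called in both directions. Of 33 tested cytokines and growth factors, 10 were called higher in RAW-Blue and 14 higher in K-Luc. Of 16 tested chemokines, 7 were called higher in RAW-Blue (3 without K-Luc replicate 2) and 5 higher in K-Luc, and of 12 tested chemokine receptors, 9 in RAW-Blue (2 without K-Luc replicate 2) and 2 in K-Luc. Of the 20 listed chemokine receptors, 8 were not tested, and of the 30 listed chemokines, 14. Among tested members, 11 of 12 receptors and 9 of 16 chemokines had at most 3 counts in both untreated libraries of 1 line. Their direction was largely set by the filter. Tnf had 50.8 and 46.6 RPKM in RAW-Blue and 0 and 0 in K-Luc, at least 577-fold higher. The chemokines Ccl3 (210.8 and 193.4 RPKM) and Ccl4 (129 and 109.6) were detected in RAW-Blue alone, and Ccl9 had 147.6 and 115.4 RPKM against 0.7 and 0.5. On the K-Luc side, Cxcl12 had 0 and 0 RPKM in RAW-Blue and 44.2 and 41.2 in K-Luc, and Clcf1, a cytokine of the IL-6 family, 0 and 0 against 17.4 and 24.1. Ccl2, a chemokine that draws monocytes, was not called, with 11.9 and 10.9 RPKM against 12.5 and 12.9.

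Setting ligands beside their receptors, in 28 pairs listed after the data were seen, showed several with 1 partner in each line. Others had both partners called higher in the same line, as given below. Csf1, the ligand of Csf1r, had 0.2 and 0.3 RPKM in RAW-Blue and 102.8 and 94.8 in K-Luc (-8.54 ± 0.12, adjusted p = 2.3e-24), and Il34, its other ligand, 0.4 and 0.4 against 10.1 and 11.5. Cx3cl1 had 28.2 and 25.8 RPKM in K-Luc alone, and its receptor Cx3cr1 67.8 and 67.8 in RAW-Blue alone. Cxcr4, a receptor for Cxcl12, had 7.7 and 7.9 RPKM in RAW-Blue against 0.4 and 0.3. These pairs had the ligand in K-Luc and the receptor in RAW-Blue.

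The reverse order held for other pairs. Pdgfb had 32 and 26.5 RPKM in RAW-Blue and 13 and 11.6 in K-Luc (1.34 ± 0.11), and its receptor Pdgfrb was high in K-Luc, as above. Osm, oncostatin M, had 2.8 and 2.5 RPKM in RAW-Blue alone and Osmr 4.1 and 4.1 in K-Luc alone. Igf1 had 3.3 and 5.1 RPKM in RAW-Blue and 0.9 and 0.6 in K-Luc, and Igf1r 12.8 and 12.3 in K-Luc alone. Gas6, the ligand of Axl, had 1.8 and 1.1 RPKM in RAW-Blue alone. Spp1, osteopontin, was among the most abundant genes of both lines, with 892.3 and 1087.3 RPKM in RAW-Blue and 1027.3 and 1162.7 in K-Luc (-0.02 ± 0.10), and its receptor Cd44 was not called. Other pairs had both partners called higher in the same line. In RAW-Blue these were Tgfb1 with Tgfbr2 and Mif with Cd74. In K-Luc they were Pdgfa with Pdgfra, Cxcl12 with Ackr3, Hbegf with Egfr, Il33 with Il1rl1, Hgf with Met and Lif with Lifr. Ackr3 is the other listed receptor of Cxcl12, at a mean of 0 RPKM in RAW-Blue and 3.7 in K-Luc. RNA levels say nothing of secretion, and the lines were cultured apart.

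**Figure D4:**
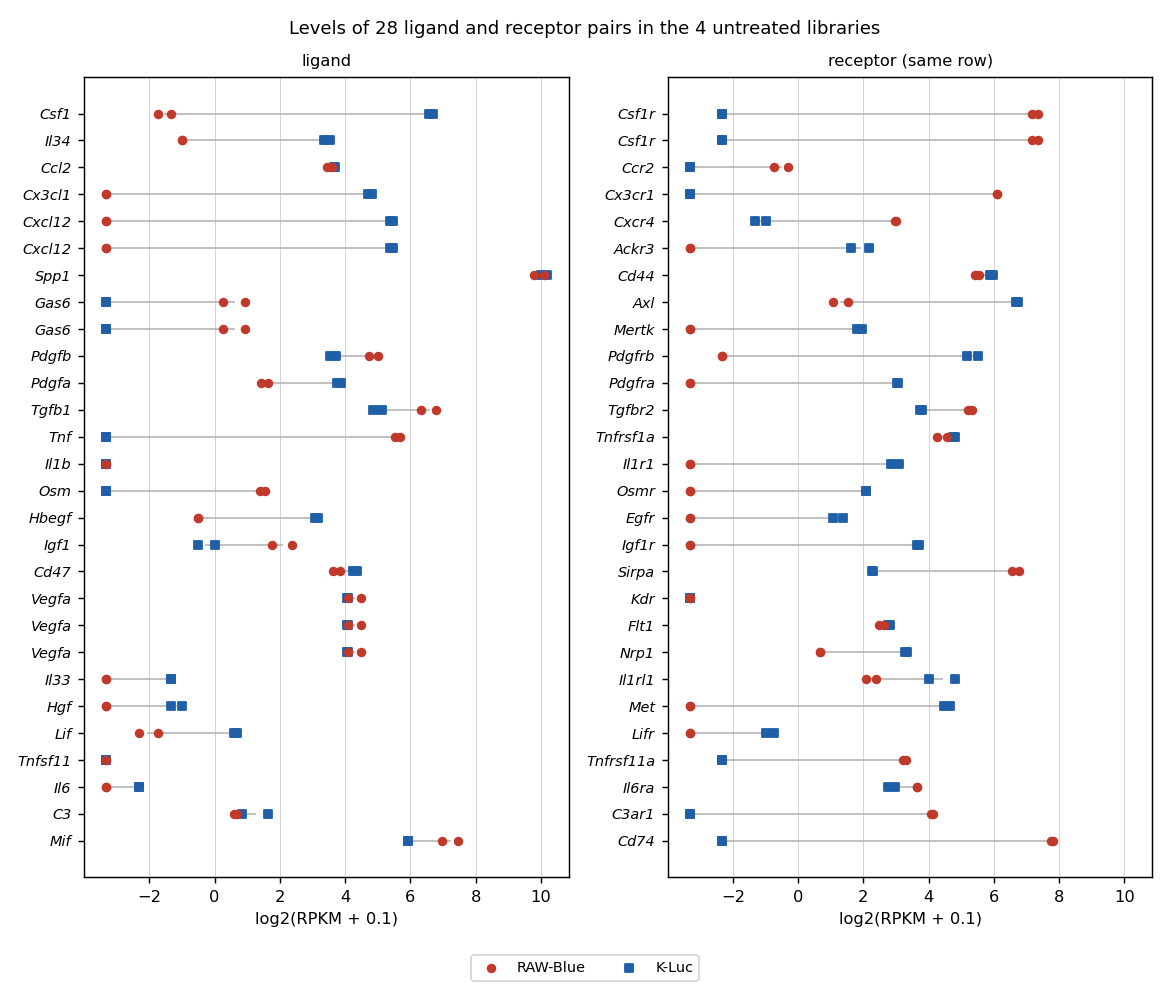
Levels of 28 ligands (left) and of a receptor of each (right, same row) as log2(RPKM + 0.1) in the 4 untreated libraries. Red circles are the RAW-Blue libraries, blue squares the K-Luc libraries, and grey lines join the means of the lines. Csf1 and Csf1r lie at opposite ends in the first row, and the values of Spp1 from both lines overlap.

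Complement and interferon genes were split. Of 16 tested complement genes, 10 were called higher in RAW-Blue (4 without K-Luc replicate 2), among them the receptors C3ar1 (16.7 and 17.3 RPKM) and C5ar1 (7.3 and 8.2), at 0 in K-Luc, and 5 higher in K-Luc, among them the proteases C1s1 and C1ra. Of 37 tested interferon-stimulated genes, 13 were called higher in RAW-Blue and 10 higher in K-Luc, with a median of 0.43. Oas3, an antiviral synthetase, had 5.8 and 7.4 RPKM in RAW-Blue and 0 and 0 in K-Luc, and Ifit2 1.6 and 2.1 against 13.3 and 13.2 (-2.59 ± 0.11). Arginine and itaconate genes gave 4 of 18 tested in each direction (2 higher in RAW-Blue without K-Luc replicate 2). Over all tested genes, 15.8% were called higher in RAW-Blue and 21.0% higher in K-Luc. Irg1, the itaconate enzyme of activated macrophages, had 11.4 and 12.7 RPKM in RAW-Blue alone. Nos2 had 0.6 and 0.6 RPKM in RAW-Blue and 0 and 0 in K-Luc, and Arg1 had 0 counts in all 4 libraries.

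Genes of the p53, RB and RAS pathways included several p53 targets that were higher in RAW-Blue. Of 28 tested, 8 were called higher in RAW-Blue and 5 higher in K-Luc, with a median of 0.14. Over all tested genes these shares were 15.8% and 21.0%. Cdkn1a, the cell cycle inhibitor p21, had 150.6 and 124.1 RPKM in RAW-Blue and 4.6 and 4.6 in K-Luc (5.11 ± 0.15, adjusted p = 3.2e-17). Bax, a mediator of cell death, had 140.9 and 108.7 RPKM against 33.6 and 31.9, and Ccng1 55.5 and 69.6 against 19.2 and 17.4. The targets Mdm2 (1.97 ± 0.09), Bbc3 (3.25 ± 0.13) and Pmaip1 (2.20 ± 0.19), named after their values were seen, were also called higher in RAW-Blue. Gadd45a, which p53 also induces, was higher in K-Luc (0.4 and 0.4 against 28.7 and 16.2). Trp53 itself had 58.6 and 49.1 RPKM in RAW-Blue and 26 and 29 in K-Luc (1.03 ± 0.08) and did not pass the test against 2-fold.

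On the RAS side, Nf1, the GTPase-activating protein lost in the mice behind KR158, had 3.3 and 4.6 RPKM in RAW-Blue and 8.9 and 8.6 in K-Luc (-1.03 ± 0.10) and did not pass the test against 2-fold. A gene count does not show whether the transcripts are intact. Spry2, Spry4 and Etv4, targets of RAS and ERK signals, were called higher in K-Luc: Etv4 had 0.4 and 0.3 RPKM in RAW-Blue and 7.7 and 9.1 in K-Luc. Spry2 had 0 and 0 against 8 and 8.1. Cdkn2a and Cdkn2b, inhibitors of cell cycle kinases, had at most 1 count in any of the 4 libraries.

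By the test of any difference, 6 cell cycle genes were higher in RAW-Blue, 17 higher in K-Luc and 12 neither. By the test against 2-fold, few were called. Of 35 tested, 29 were not called, 3 were higher in RAW-Blue (1 without K-Luc replicate 2) and 3 higher in K-Luc (5 without RAW-Blue replicate 1 and 7 without RAW-Blue replicate 2), with a median of -0.23. Beside Mycn and Myc, Ccnd1, cyclin D1, had 153.8 and 137 RPKM in RAW-Blue and 71 and 65.8 in K-Luc, and Ccnd2 11.2 and 12.3 against 36.2 and 32.9. Mki67, a proliferation marker, overlapped between the lines and differed between the RAW-Blue replicates, with 53.3 and 104.8 RPKM in RAW-Blue and 80.6 and 93.4 in K-Luc.

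Other genes were held at like levels. Of 1829 genes above 100 CPM in both lines, 806 had a 95% confidence interval within 0.5 log2 units of equality. The 5 with the highest CPM were Hsp90ab1, a heat shock protein (-0.31 ± 0.07), Ahnak (-0.26 ± 0.09), Scd2, a desaturase (-0.09 ± 0.12), Spp1 and Tubb5, a tubulin (-0.29 ± 0.09). Hsp90ab1, Ahnak and Tubb5 were called lower in RAW-Blue by the test of any difference, but not in the fit of the 4 untreated libraries. Of 20 housekeeping genes, 2 were called higher in RAW-Blue and 3 higher in K-Luc. Without RAW-Blue replicate 1 the first count was 1, and without RAW-Blue replicate 2 or K-Luc replicate 2 the second was 1. Actb had 1877 and 1364.9 RPKM in RAW-Blue and 1201.9 and 1339.1 in K-Luc and was not called. Gapdh had 4.3 and 4.1 RPKM against 1.6 and 2. The part of reads shared with its pseudogene copies in these low values was not tested.

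Annexin, S100 and galectin genes were abundant in both lines. Of 21 tested, 8 were called higher in K-Luc and 2 higher in RAW-Blue (0 without RAW-Blue replicate 1, 1 without either K-Luc library). Lgals1, galectin-1, had 406.6 and 277.7 RPKM in RAW-Blue and 1547.6 and 1930 in K-Luc (-2.36 ± 0.11). Lgals3, galectin-3, had 411.4 and 311.2 against 164.4 and 179.4 (1.20 ± 0.10, adjusted p = 0.018).

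Markers of other cell types were mostly undetected. Of the listed markers found in the table of counts, the numbers that passed the filter on low counts were 2 of 9 for T cells, 1 of 9 for B cells, 2 of 9 for neutrophils, 3 of 9 for endothelium, 6 of 12 for neurons, 4 of 8 for myelinating oligodendrocytes and 1 of 11 for epithelium. The summed T cell markers were 5.7 and 5.4 RPKM in RAW-Blue, from Cd5 (4.2 and 4.3) and Lck (1.4 and 1) with Cd3e at 0, and the neuronal markers 26.4 and 22.6 RPKM in K-Luc, from Tubb3 (15.9 and 13.5) and Map2 (9.9 and 8.5) with Rbfox3 at 0. Mbp, known from myelin, had 14.1 and 12.7 RPKM in RAW-Blue and 0.3 and 0.2 in K-Luc, with Mog and Mobp at 0. Of the sex-chromosome genes, the Y-linked Ddx3y, Eif2s3y, Kdm5d and Uty were detected in RAW-Blue alone (Eif2s3y at 16.5 and 30.5 RPKM, the group called in 4 of 9 tested genes and in 0 without K-Luc replicate 2) and Xist in K-Luc alone (8.7 and 4.1).

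The comparison between the lines was repeated within each treatment to see which differences persisted. The test against 2-fold called 1671 genes (12.5% of those tested) higher in RAW-Blue in all 5 treatment groups, and 2433 (18.2%) higher in K-Luc. The first count was 1107 without K-Luc replicate 2, and 1568 with the run term also dropped. These were 79.1% of the RAW-Blue calls and 86.8% of the K-Luc calls made in untreated cells. Each treatment group has its own libraries, but the fit shares 1 estimate of spread. The difference between the lines changed from untreated to SWNT/CpG cells in 3392 genes (25.4%) by the quasi-likelihood test, and 1 of them was called in opposite directions. That gene was Ccl7, a monocyte chemokine. In untreated cells Ccl7 had 0.883 and 0.473 CPM in RAW-Blue and 4.04 and 4.33 in K-Luc (-2.67 ± 0.31). In SWNT/CpG cells it had 26.3 and 20.5 CPM in RAW-Blue and between 5.26 and 6.24 in 3 K-Luc libraries. The change of the difference from untreated to SWNT/CpG cells was 4.66. Ccl7 was also higher in RAW-Blue with CpG, at 9.42 and 7.92 CPM against 2.58 to 3.02 in K-Luc. With CpG+SWNT/LP it had 17.9 and 24.4 CPM in RAW-Blue against 3.86 to 4.19. With SWNT/LP it stayed lower in RAW-Blue, at 1.93 and 2.60 CPM against 4.31 to 5.09.

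Spp1, equal in the untreated lines, separated with treatment, at 2425 to 2954 CPM in untreated and 11268 to 11454 in SWNT/CpG RAW-Blue libraries, against 2519 to 2856 and 2132 to 2442 in K-Luc. In RAW-Blue it was also higher with SWNT/LP (4203 to 4385 CPM), CpG (6059 to 6699) and CpG+SWNT/LP (8227 to 9682). All K-Luc libraries lay between 2132 and 3288 CPM. Csf1 stayed between 1.88 and 3.67 CPM in every RAW-Blue library and between 662 and 837 in every K-Luc library. Mycn stayed at or above 1338 CPM in every RAW-Blue and at or below 0.262 in every K-Luc library, and Sox2 at or below 0.102 and at or above 88.9. The values of Csf1, Mycn and Sox2 from the 2 lines thus overlapped in no treatment group. In the untreated libraries alone, the lines did not overlap in 11026 of 13350 tested genes.

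**Figure D5:**
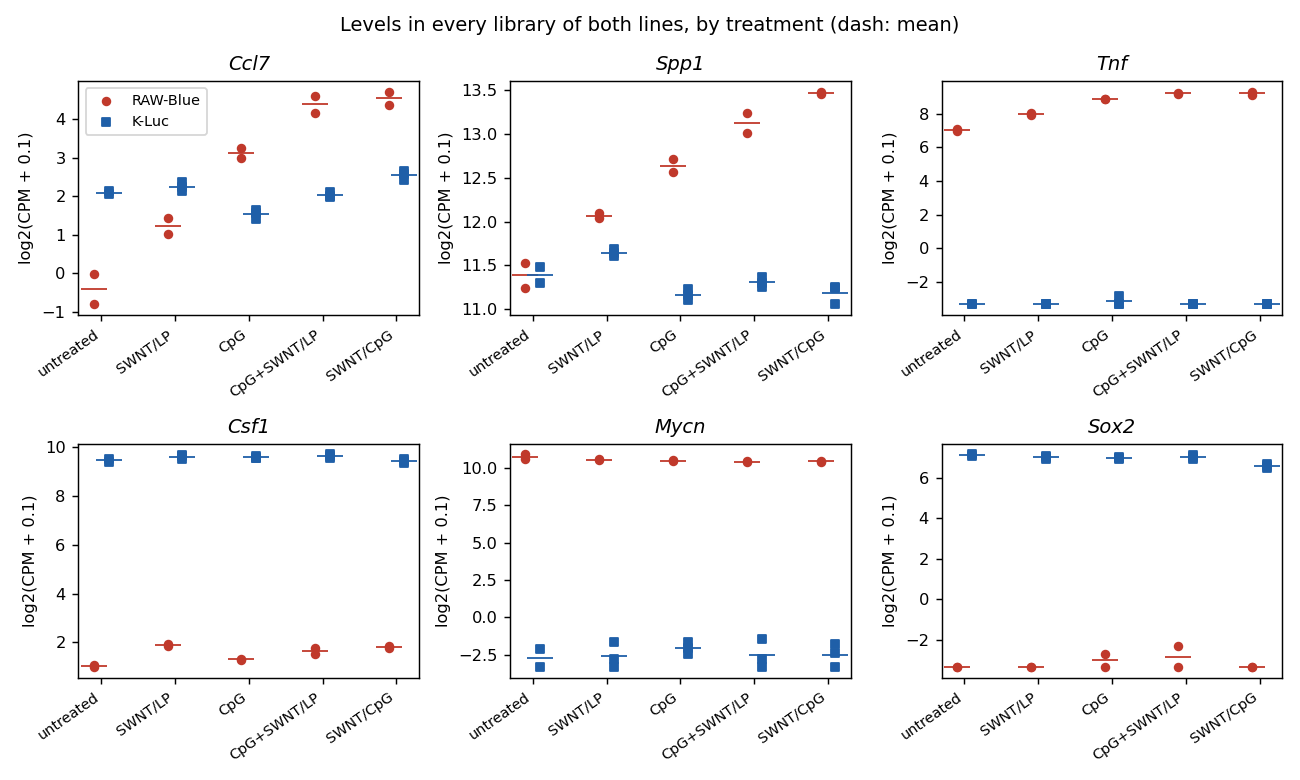
Levels of Ccl7, Spp1, Tnf, Csf1, Mycn and Sox2 as log2(CPM + 0.1) in every library, by treatment. Red circles are RAW-Blue libraries (2 per group), blue squares K-Luc libraries (2 untreated, 3 in each other group), and dashes the group means. The Ccl7 points of the lines change places between untreated cells and those given CpG, CpG+SWNT/LP or SWNT/CpG. Those of Csf1, Mycn and Sox2 stay apart in all 5 groups.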

How the data were processed

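The series holds 24 libraries of 2 lines, made with a stranded mRNA kit, per the labels' protocols. The authors deposited read counts per gene and a table in RPKM. Per the submitters' processing notes, reads were processed with HTSeq 0.6.0 and TopHat2 2.0.14 on mm9. Which annotation and strand setting were used is not stated. The deposited counts of all 24 libraries were fitted with edgeR 4.0.16 in R 4.3.3 (group and run terms, TMM scaling, filterByExpr with minimum count 10 and minimum total 15, robust dispersion, 13 residual degrees of freedom), by the quasi-likelihood F test and by glmTreat against 2-fold, with Benjamini-Hochberg adjustment over 13350 of 21669 genes. The test was tested on simulated data. RPKM served for levels. Replicate numbers do not pair the lines (r of deviations -0.0644).

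Members and lists (40 lists, 953 genes, 3 symbols unmatched) were chosen with earlier results of these data known. Genes are named by rule: the 10 highest RPKM detected in each line alone, the 10 largest differences each way with over 3 counts in every library and 10 CPM in the higher line, up to 4 called members per list and direction, the paired relatives, fixed single genes, the 5 most abundant equal genes, and genes that changed direction. Not every gene so chosen is printed, and 1 of the 27 pairs of relatives is not reported here by name. Promoters are RefSeq entries, matched by symbol for 1142 of 1589 genes detected in 1 line. Alternatives were DESeq2 1.42.0, its size factors, other scalings and filters, subsets of libraries, run and replicate terms, and limma 3.58.1 on log2(RPKM + 0.1).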

Additional observations from a re-analysis of the deposited data

Results flagged for a closer look

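The difference between the lines in Ccl7 changed direction with treatment. RAW-Blue minus K-Luc was -2.67 log2 units in untreated cells and 1.99 in SWNT/CpG cells, a change of 4.66 by the quasi-likelihood test of the interaction. All RAW-Blue values were below all K-Luc values in untreated cells and above them in SWNT/CpG cells. They were also above them with CpG and with CpG+SWNT/LP, and below them with SWNT/LP.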

How the results depend on the processing

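The counts of called genes over all tested genes kept within 1.5 times their value under the alternatives, except as follows. Without 1 library, calls over 2-fold ranged from 1358 to 2064 higher in RAW-Blue and 2643 to 2978 higher in K-Luc, calls in all 5 groups from 1107 to 1632 and 2384 to 2436, calls of any difference from 3644 to 4859 and 4988 to 5735, and genes detected in 1 line from 533 to 605 in RAW-Blue and 1107 to 1167 in K-Luc. The lowest RAW-Blue counts came without K-Luc replicate 2, and were 1904, 1568 and 4500 with the run term also dropped, an alternative chosen after seeing the data. Genes called in opposite directions numbered 2 with DESeq2 size factors and with no filter on low counts, 3 without the run term and with the replicate block, 1 without any 1 library, and 4 without K-Luc replicate 2 and the run term. The cause was not tested. Of the called members per list, other small counts also moved by over 1.5 times. In the fit of the 4 untreated libraries, the number higher in RAW-Blue fell to 0 for annexin, S100 and galectin genes and for caveola and junction genes, and to 1 for cell cycle genes, and the number higher in K-Luc was 1 for housekeeping and 2 for antigen presentation genes. With limma, the number higher in RAW-Blue was 0 for the annexin, caveola and cholesterol lists, and 1 for the cell cycle, developmental and housekeeping lists. With DESeq2 it was 0 for caveola and 1 for annexin genes, with 1 housekeeping gene higher in K-Luc. It was 0 for caveola genes with a minimum count of 30, and 1 for annexin genes in run 2 alone and with the replicate block. Without the run term, 1 caveola gene was higher in RAW-Blue, and 1 housekeeping and 2 antigen presentation genes were higher in K-Luc. Without K-Luc replicate 2 and the run term, 1 annexin, 1 caveola and 0 cholesterol genes were higher in RAW-Blue, and 2 lysosomal and 0 housekeeping genes higher in K-Luc. At least 5 CPM in the higher line left 329 genes in RAW-Blue alone. With the replicate block, 4909 genes were called over 2-fold, against 4915. On log2 RPKM with limma the median of all genes moved by -0.134, and Stmn2, under 0.1 RPKM in all 4 libraries, reversed to 0.27. Over 285 named genes and all alternatives, 4483 results kept direction and side of the threshold, 60 lost the call and 6 gained one, under the test of any difference. Counts of 3 or fewer per library, 0.132 to 0.225 CPM, set the floor.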

Other observations

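Hmgcs1, an enzyme of cholesterol synthesis, was listed at 0 counts in all 4 untreated libraries, although 23 of the 25 listed genes of that pathway passed the filter on low counts. The run term of the fit was called in 934 genes.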
